A study of Columba livia with 6 samples.

Results

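The oxidative phosphorylation genes of the domestic pigeon, Columba livia, were followed in the ovaries of birds with high and low egg production. The members were the loci whose KEGG annotation in the expression table lists oxidative phosphorylation and lists neither the lysosome nor the phagosome, with ATP6V1B1 left out. This gave 88 of the 34346 loci. Another 26 loci carry the oxidative phosphorylation label but were left out by the rule, since they belong to the proton pump of acidic organelles or share its annotation. RNA was sequenced from 6 ovaries. The HP ovaries, numbered HP1 to HP3, came from 3 birds that laid many eggs, and the LP ovaries, numbered LP4 to LP6, from 3 birds that laid few. All birds were 2 years old and sexually mature, none was treated, and no genetic difference between the groups is given. Each library is a sample of whole ovary, and the groups differ in their recorded laying performance, which was not imposed by the experiment. The question the comparison addresses is which ovarian transcripts differ between hens that lay more and hens that lay less.

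Oxidative phosphorylation takes electrons from NADH and succinate and passes them along the inner mitochondrial membrane to oxygen. Complexes I and II feed electrons into ubiquinone, complex III passes them to cytochrome c, and complex IV hands them to oxygen. Complexes I, III and IV pump protons, and complex V, the ATP synthase, uses the returning protons to make ATP. Most subunits are encoded in the nucleus, and a smaller set of subunits of complexes I, III, IV and V is encoded in mitochondrial DNA. In the ovary, the mitochondria of oocytes and of the steroid-making follicle cells depend on this pathway.

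By gene symbol or protein description, 68 members were subunits of the 5 complexes. There were 34 loci for complex I, 4 for complex II, 6 for complex III, 9 for complex IV and 15 for complex V. A further 3 members were assembly factors of complex IV, 7 were other enzymes of the KEGG map (pyrophosphatases, proton and potassium pumps and LHPP), and 10 had no name of the respiratory chain. No locus of the table lies on a mitochondrial sequence, so every member is a nuclear gene and the subunits made from mitochondrial DNA were not analysed here.

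The label of the tissue was checked first. Granulosa markers summed to 352 to 841 CPM and germ cell markers to 247 to 382 CPM in HP, against 596 to 742 and 241 to 332 CPM in LP, while 1 of 5 theca and steroid cell markers was found in the table. Leukocyte markers summed to 752 to 1090 CPM in HP, against 858 to 1105 CPM in LP. AMH (153 to 604 CPM) and FOXL2 (173 to 244 CPM) made up most of the granulosa sums. INHA (0.179 to 0.999 CPM) and INHBA (1.14 to 4.10 CPM) were low. Adrenal chromaffin markers summed to 81.6, 74.0 and 196 CPM in HP1, HP2 and HP3, against 91.5, 120 and 83.1 CPM in LP4, LP5 and LP6. Endothelium markers summed to 142.5 to 176.8 CPM in HP, against 156.9 to 227.7 CPM in LP. Kidney tubule and smooth muscle markers are described below.

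Counts were high for most members. The total counts per ovary lay between 97875183 and 108669967. In HP1, HP2 and HP3 this total exceeded the number of raw reads that the study reports. The totals are therefore not numbers of mapped reads, and a read may enter more than a single count. The members took 0.442, 0.469 and 0.462% of the counts in HP1, HP2 and HP3, against 0.477, 0.418 and 0.435% in LP4, LP5 and LP6. All 88 members passed the filter of a mean FPKM of at least 0.1, none had a count of 0 in any ovary, and 65 had over 1000 counts in every ovary. Levels are given below as TMM-scaled CPM (counts relative to the library total), a unit that allows an ovary to be compared with another ovary but not a gene with another gene. The loci themselves set a second limit. Of the members, 11 carry the symbols of several genes, and 26 overlap another locus on the other strand. Whether the counting used the strand is not given in the sources used here, so reads of such a locus and its partner may not be separated.

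No oxidative phosphorylation gene differed between HP and LP ovaries after adjustment. By edgeR's quasi-likelihood test 0 of 88 members had an adjusted p under 0.05, against 0.0106% of all 28274 tested loci, and the lowest adjusted p of a member was 0.560. At an unadjusted p under 0.05, 2 members (2.27%) were higher in HP, COX10 and NDUFA9, against 4.74% of all tested loci. SDHC was the 1 member (1.14%) lower in HP at this level, against 3.5% of all tested loci. DESeq2 gave 7 members (7.95%) at an unadjusted p under 0.05, against 10.3% of all loci in that fit, and limma on log2(FPKM + 1) gave 5 (5.68%), against 8.75%, and both gave 0 members at an adjusted p under 0.05. The median log2 fold change of HP over LP was -0.013 over the members and -0.008 over all tested loci. Log2 fold changes were above 0 for 41 members and below 0 for 47.

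Most members moved little. The median size of the log2 fold change was 0.17 over the members, with a median SE of 0.17, and it was 0.23 over all tested loci. Fold changes of at least 1 on the log2 scale were found for 2 members, NDUFA4L2 and ATP12A, and for each of them 1 ovary carried the difference, as described below. The 3 HP ovaries were all above the 3 LP ovaries for 10 members (11.4%), against 7.38% of all tested loci. These were NDUFA5, NDUFA9, NDUFA12, NDUFAB1, NDUFB9, NDUFS1, NDUFV3, COX7B, COX10 and ZC2HC1B. The 3 HP ovaries were all below the 3 LP ovaries for 7 members (7.95%), against 7.17% of all tested loci. These were NDUFA13, NDUFS8, NDUFV1, SDHC, UQCRH, COX6A1 and ATP5J2.

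**Figure D1:**
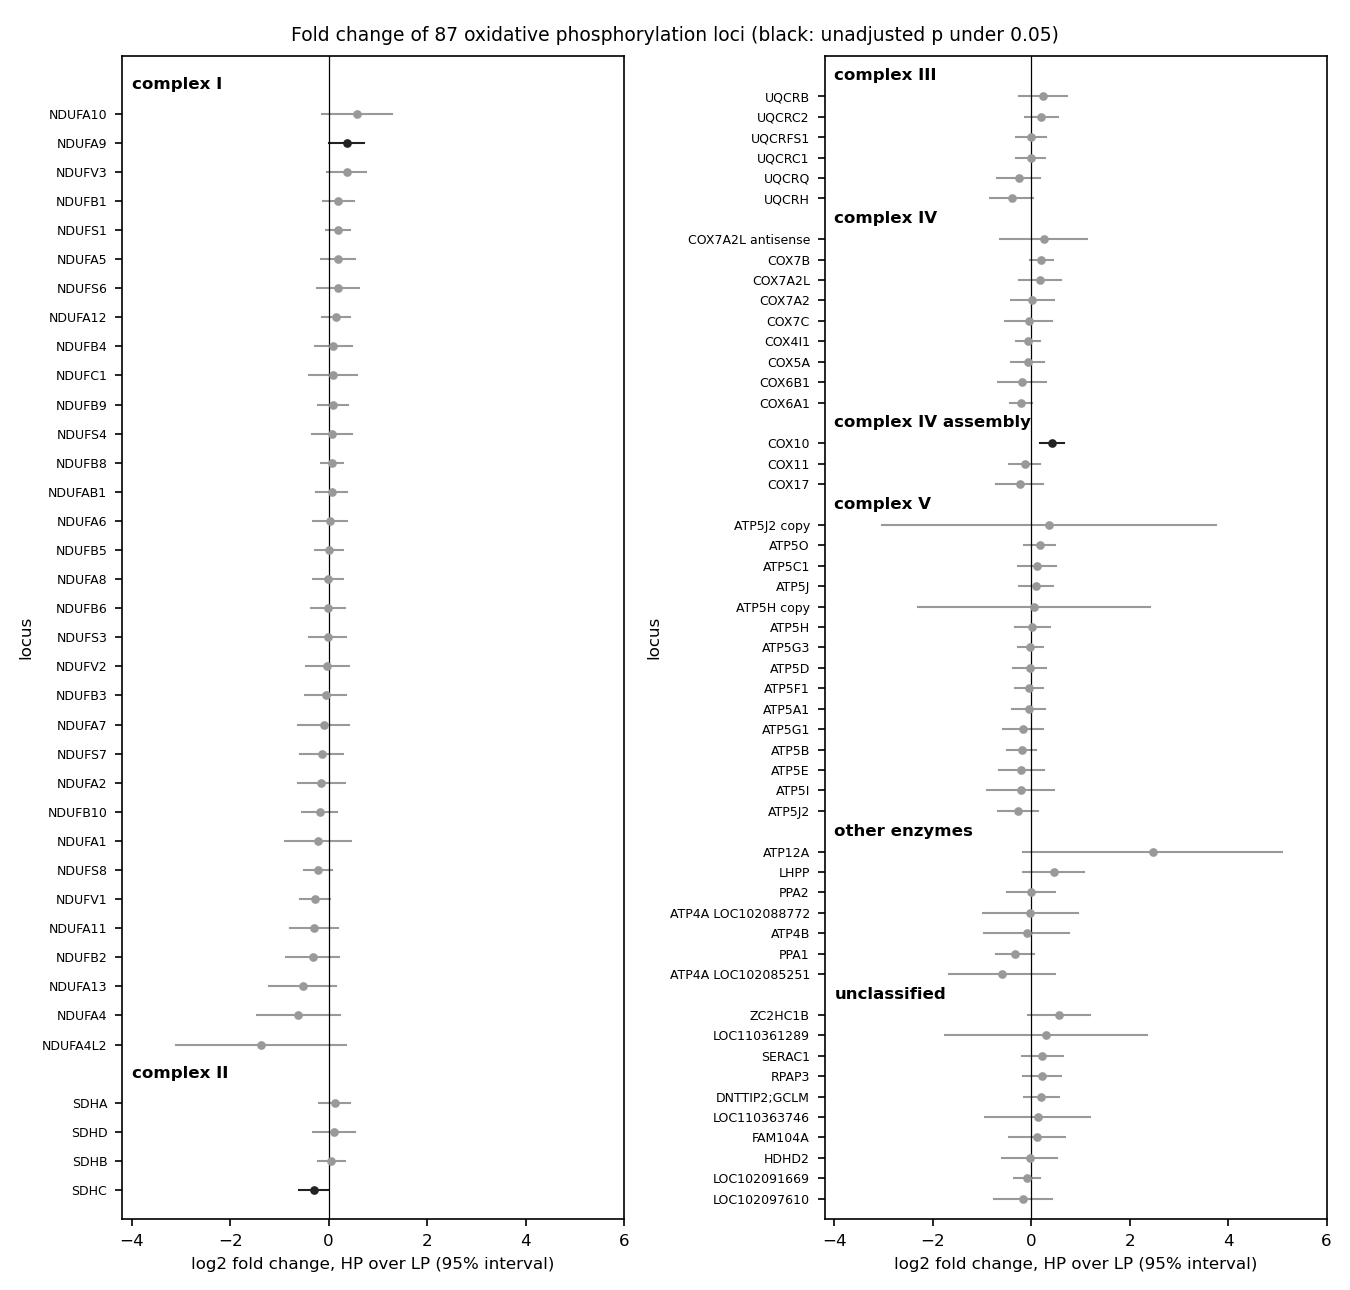
Log2 fold change of HP over LP with its 95% interval (horizontal axis) for 87 of the 88 loci (vertical axis), grouped by complex, from edgeR's quasi-likelihood fit. Black marks the 3 loci with an unadjusted p under 0.05 (NDUFA9, SDHC and COX10), grey the others, and the widest intervals are those of the short ATP5J2 and ATP5H copies and of ATP12A.

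The summed level of the member loci of each complex overlapped between the groups. These sums are partial, since no member was named CYC1, COX5B or COX6C. The complex IV sum also holds the low locus LOC110365675, opposite to COX7A2L. Complex I summed to 1325, 1421 and 1434 CPM in the HP ovaries, against 1395, 1267 and 1338 CPM in the LP ovaries. For complex V the sums were 1168, 1233 and 1227 CPM in HP, against 1383, 1152 and 1272 CPM in LP. The log2 ratios of the group means were 0.06 for complex I, 0.03 for complex II, 0.01 for complex III, 0.07 for complex IV and -0.07 for complex V. The spread between ovaries of a group, a pooled SD of single ovaries, was 0.07, 0.11, 0.13, 0.07 and 0.10 on the same scale. It is not the error of a ratio of group means and sets no threshold. None of the CPM ratios (0 of 5) exceeded this spread, but complexes I and IV came close, at 0.064 against 0.066 and 0.071 against 0.072. The complex I sum holds NDUFA4L2 and NDUFA4, and NDUFA4 averaged 25.3 CPM in HP and 38.9 CPM in LP. NDUFA4 is described as a cytochrome c oxidase subunit, and sums with it left out or placed in complex IV were not made. With FPKM in place of CPM the groups still overlapped, but 3 of the 5 ratios exceeded their spread, namely 0.10 for complex I (spread 0.098), 0.10 for complex IV (spread 0.064) and -0.12 for complex V (spread 0.10). Loci that join several genes carried part of the CPM sums, and COX7B with ATP7A averaged 277 of the 514 CPM of complex IV in HP, against 240 of 490 CPM in LP. Without the loci of several gene symbols, an alternative added after seeing the data, the ratio was -0.07 for complex IV and -0.06 for complex II, so that both changed sign, and it was 0.05, 0.03 and -0.08 for complexes I, III and V. No test was made of the sums. Over all 68 subunits the sum was 3973 ± 158 CPM in HP and 3935 ± 273 CPM in LP (SD, n = 3 each).

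**Figure D2:**
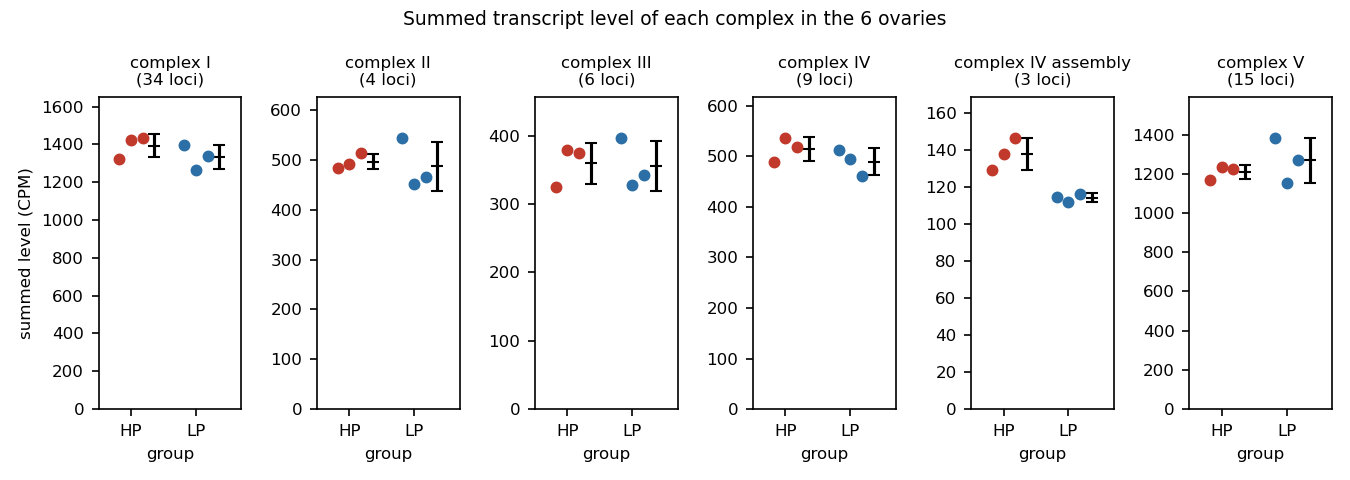
Summed CPM of the loci of each complex (vertical axes, starting at 0) in the 3 HP ovaries (red) and the 3 LP ovaries (blue), with the group mean ± SD in black. The groups overlap for complexes I to V. The 3 assembly factors of complex IV sum to 129 to 147 CPM in HP and 112 to 117 CPM in LP, a gap that comes from COX10. The gap is not seen in the FPKM sums, which are 90.1 to 99.3 in HP and 91.1 to 99.5 in LP. In FPKM, COX11 (mean 67.0) outweighs COX10 (mean 17.6). COX10 itself had a log2 fold change of 0.44 by limma on log2(FPKM + 1).

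Complex I takes electrons from NADH. Of its 34 loci, 1 was higher in HP and 0 were lower at an unadjusted p under 0.05, against 4.74% and 3.5% of all tested loci. The median log2 fold change was -0.015. NDUFA9, an accessory subunit close to the ubiquinone site, had 41.7, 40.6 and 51.9 CPM in HP1, HP2 and HP3, against 37.6, 31.1 and 35.4 CPM in LP4, LP5 and LP6. The groups did not overlap, and HP3 was the highest ovary. NDUFA9 had a log2 fold change of 0.36 ± 0.15 (SE), with an adjusted p of 0.595 by edgeR. The unadjusted p stayed under 0.05 in 8 of 12 alternative fits, with adjusted p-values between 0.437 and 0.902. This locus spans 178773 bases, carries a second symbol, LOC110359276, and overlaps 3 other loci, so its counts may not be those of NDUFA9 alone.

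In the electron-carrying core of complex I, the HP ovaries were all above the LP ovaries for 1 locus and all below them for 2. Of all tested loci, 7.38% were above and 7.17% below in this way, so counts this small among 7 loci say little. The 7 core subunits encoded in the nucleus had a median log2 fold change of -0.07, so most were below 0. NDUFS1, the subunit with the most iron-sulfur clusters, had 137, 154 and 157 CPM in HP, against 134, 123 and 134 CPM in LP. NDUFV1, which binds NADH, had 23.3, 22.8 and 21.8 CPM in HP, against 28.0, 25.0 and 29.3 CPM in LP. The HP ovaries were thus all above the LP ovaries for NDUFS1 and all below them for NDUFV1, although both proteins sit in the same NADH-oxidising arm. Their log2 fold changes were 0.20 ± 0.10 and -0.28 ± 0.13 (SE), with adjusted p-values of 0.650 and 0.615 by edgeR. NDUFS8, an iron-sulfur subunit on the way to ubiquinone, had 33.6, 37.0 and 34.7 CPM in HP, against 40.9, 44.6 and 37.1 CPM in LP, where the highest HP and the lowest LP ovary nearly met. NDUFS3, NDUFS7 and NDUFV2 overlapped between the groups.

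Among the accessory subunits whose groups did not overlap, NDUFV3 and NDUFA13 had, with NDUFA9, the largest fold changes. NDUFV3 had 35.5, 36.9 and 38.4 CPM in HP, against 35.0, 26.8 and 24.3 CPM in LP. LP4 was close to the HP ovaries, and the other LP ovaries were lower. NDUFA13, known in mammals as GRIM-19, had 4.91, 5.42 and 2.98 CPM in HP, against 5.60, 6.03 and 7.61 CPM in LP, with HP2 and LP4 close together. Neither passed the unadjusted threshold, with adjusted p-values of 0.612 and 0.655 by edgeR. NDUFA5, NDUFA12, NDUFAB1 (the mitochondrial acyl carrier protein) and NDUFB9 did not overlap either, but their log2 fold changes were 0.19, 0.14, 0.06 and 0.09.

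NDUFA4 and NDUFA4L2 are relatives that stand in the table under complex I names, although the table describes NDUFA4 as a cytochrome c oxidase subunit and the mammalian protein is now assigned to complex IV. NDUFA4 had 17.3, 19.0 and 39.7 CPM in HP1, HP2 and HP3, against 43.9, 43.2 and 29.5 CPM in LP4, LP5 and LP6. HP1 and HP2 were below all LP ovaries, while HP3 was within their range. NDUFA4 had a log2 fold change of -0.62 ± 0.35 (SE), with an adjusted p of 0.669 by edgeR, and it was -1.10 without HP3, with an adjusted p of 0.615 and a range of 0.604 to 0.914 over the alternatives. NDUFA4L2, which mammalian cells raise under low oxygen, had 1.78, 0.794 and 1.92 CPM in HP, against 2.82, 1.08 and 7.78 CPM in LP. LP6 alone was far above the rest. Its log2 fold change was -1.38 ± 0.73 (SE), with an adjusted p of 0.653 by edgeR, and it was -0.38 without LP6.

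Complex II, succinate dehydrogenase, joins the citric acid cycle to the respiratory chain. SDHC, a membrane anchor that takes part in binding ubiquinone, had 87.2, 70.3 and 73.2 CPM in HP1, HP2 and HP3, against 98.0, 99.4 and 87.9 CPM in LP4, LP5 and LP6. The groups did not overlap, but HP1 and LP6 lay close together. SDHC had a log2 fold change of -0.31 ± 0.12 (SE), with an adjusted p of 0.595 by edgeR, and the unadjusted p was under 0.05 in 6 of 12 alternatives. The SDHC locus is among those that overlap another locus on the other strand. The other anchor, SDHD, had 59.0, 45.6 and 49.3 CPM in HP, against 59.2, 42.5 and 42.0 CPM in LP, and the catalytic flavoprotein SDHA and the iron-sulfur subunit SDHB also overlapped. Their log2 fold changes were 0.10 for SDHD, 0.12 for SDHA and 0.05 for SDHB. The SDHA locus also carries the symbol FH, so it may count 2 enzymes.

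Complex III had 0 of 6 loci at an unadjusted p under 0.05 by edgeR, against 4.74% of all tested loci higher and 3.5% lower in HP. At these shares a count of 0 says little about 6 loci. UQCRH, the hinge protein that helps cytochrome c1 meet cytochrome c, had 31.0, 41.1 and 47.1 CPM in HP, against 59.5, 47.9 and 49.5 CPM in LP. The groups did not overlap, with HP3 next to LP5. The log2 fold change was -0.40 ± 0.18 (SE), with an adjusted p of 0.615 by edgeR. The 2 core proteins UQCRC1 and UQCRC2 had log2 fold changes of -0.016 and 0.20, and the Rieske iron-sulfur protein UQCRFS1 had -0.008, all with overlapping groups. UQCRFS1 had 28.2, 34.4 and 32.5 CPM in HP, against 30.8, 33.1 and 31.7 CPM in LP.

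Complex IV, cytochrome c oxidase, also had 0 of 9 loci at an unadjusted p under 0.05 by edgeR, against 4.74% of all tested loci higher and 3.5% lower in HP. At these shares a count of 0 says little about 9 loci. COX4I1, the largest nuclear subunit, had 79.2, 82.6 and 73.2 CPM in HP, against 87.5, 80.6 and 77.6 CPM in LP, with overlapping groups. COX6A1, the isoform used outside heart and skeletal muscle in mammals, had 48.4, 51.7 and 47.9 CPM in HP, against 54.9, 59.1 and 57.1 CPM in LP. All HP ovaries were below all LP ovaries, and the log2 fold change was -0.21 ± 0.10 (SE), with an adjusted p of 0.617 by edgeR. COX7B went the other way, with 254, 290 and 286 CPM in HP, against 244, 238 and 237 CPM in LP and a log2 fold change of 0.21 ± 0.10 (SE, adjusted p 0.621 by edgeR). The COX7B locus also carries ATP7A and overlaps MAGT1, and the COX6A1 locus overlaps 2 loci on the other strand. COX7A2, the isoform used outside muscle in mammals, had 24.6, 24.7 and 25.1 CPM in HP, against 28.6, 26.1 and 18.6 CPM in LP, so that the HP ovaries were nearly equal and LP6 was the lowest. COX7A2L, a relative that joins complexes III and IV into supercomplexes in mammals, had 17.3, 21.4 and 20.7 CPM in HP, against 20.3, 17.9 and 14.6 CPM in LP. The locus opposite to it, LOC110365675, bears the same protein description and reached between 0.504 and 1.10 CPM. No muscle isoform of COX6A or COX7A and no COX4I2 or COX8 is a member.

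COX10 was the member with the lowest p. It is the farnesyltransferase that makes heme O on the way to the heme A of complex IV. It had 98.4, 104.8 and 117 CPM in HP1, HP2 and HP3, against 78.2, 77.7 and 83.0 CPM in LP4, LP5 and LP6. Every HP ovary was above every LP ovary. The gap between HP1 and LP6 was larger than the range of the LP ovaries but smaller than the range of the HP ovaries. The log2 fold change was 0.42 ± 0.10 (SE), with a 95% interval of 0.17 to 0.67 and an adjusted p of 0.560 by edgeR. The fold change lay between 0.35 and 0.48 over 12 alternatives, with an unadjusted p under 0.05 in all 12 and adjusted p-values between 0.0813 (DESeq2) and 0.902 (edgeR without HP2). The locus spans 112116 bases and 8 of its 10 transcripts were assembled from these reads, so the counts may not be those of the annotated COX10 transcripts alone. The copper carriers COX11 and COX17 did not share this pattern, with log2 fold changes of -0.14 and -0.24 and overlapping groups.

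Complex V had 0 of 15 loci at an unadjusted p under 0.05 by edgeR, against 4.74% of all tested loci higher and 3.5% lower in HP. At these shares a count of 0 says little about 15 loci. Of its 15 log2 fold changes, 9 were below 0. ATP5B, the catalytic beta subunit, had 334, 380 and 399 CPM in HP, against 410, 389 and 478 CPM in LP. HP1 was the lowest and LP6 the highest ovary, with HP3 above LP5, and the log2 fold change was -0.20 ± 0.13 (SE, adjusted p 0.700 by edgeR). ATP5A1, the alpha subunit, had 274, 296 and 264 CPM in HP, against 343, 254 and 272 CPM in LP. Here LP4 was the highest ovary and LP5 the lowest. Apart from ATP5J2 and the short copies described next, the 10 stalk and membrane loci had log2 fold changes between -0.21 (ATP5I) and 0.17 (ATP5O), all with overlapping groups. The epsilon subunit ATP5E had -0.21 and ATP5G1, a gene of the membrane ring, had -0.17. ATP5J2, the small subunit f of the membrane part, had 8.24, 10.4 and 9.20 CPM in HP, against 11.3, 10.5 and 11.7 CPM in LP. HP2 and LP5 nearly met, and the adjusted p was 0.690 by edgeR.

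Among the subunits, short copies of 2 complex V genes gave the largest differences between single ovaries. LOC102092207, described like ATP5J2 as subunit f, spans 645 bases. It received 206 counts in HP1, 2 in HP2 and 151 in HP3, against 126, 5 and 135 counts in LP4, LP5 and LP6. HP2 and LP5 were thus near 0 and the other 4 ovaries were not. LOC102093830, a copy of the stalk subunit gene ATP5H, had 5.17, 17.6 and 13.4 CPM in HP, against 15.3, 18.7 and 0.765 CPM in LP. LP6 was the lowest, with 82 counts, and HP1 was the next lowest. Neither pattern followed egg production, with log2 fold changes of 0.35 ± 1.42 and 0.056 ± 0.99 (SE). The 2 copies were not low in the same ovaries. ATP5H itself had 51.1, 43.9 and 52.7 CPM in HP, against 56.5, 41.4 and 47.4 CPM in LP. Added to its copy it gave 56.3, 61.5 and 66.0 CPM in HP, against 71.8, 60.1 and 48.2 CPM in LP. Reads of gene copies can be split between loci by the mapping, and whether this took place was not tested.

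**Figure D3:**
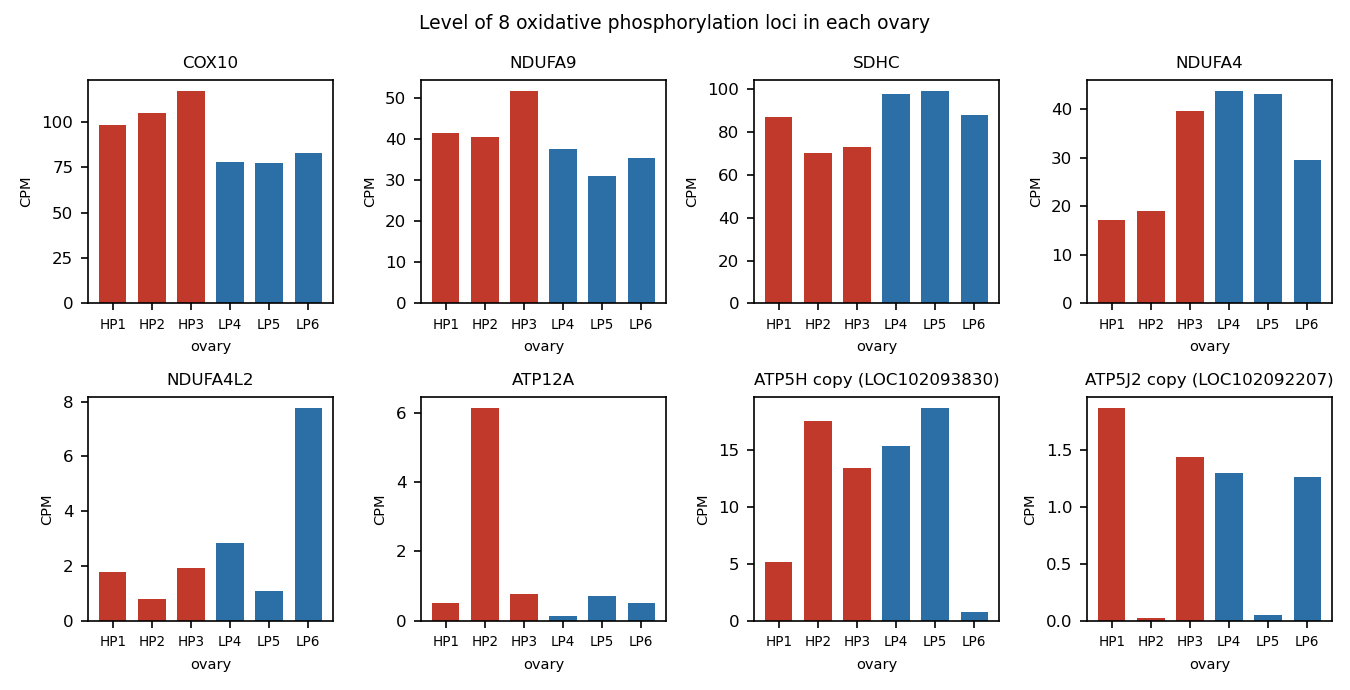
CPM (vertical axes, starting at 0) of 8 loci in each ovary, HP in red and LP in blue. COX10 and NDUFA9 are higher in every HP ovary and SDHC is lower, while NDUFA4L2 rests on LP6, ATP12A on HP2, the ATP5H copy is lowest in LP6, and the ATP5J2 copy is near 0 in HP2 and LP5.

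Ovaries of the same group differed from each other. Over the 68 subunits, the median deviation from a gene's own mean was -0.04, 0.03 and 0.05 on the log2 scale in HP1, HP2 and HP3, against 0.13, -0.03 and -0.08 in LP4, LP5 and LP6. LP4 was the highest ovary for 21 of 68 subunits (30.9%, against 16.5% of all tested loci) and the lowest for 0 of 68 (against 17.3% of all tested loci). LP5 was the lowest for 19 subunits (27.9%, against 17.3% of all tested loci) and LP6 for 20 (29.4%, against 15.8%). The ovary most often highest and the ovary most often lowest were thus both LP ovaries. By its median deviation LP4 stood highest in complexes I, II, III, IV and V, at 0.11, 0.18, 0.13, 0.13 and 0.20. Other measures differed by complex. HP3 was the highest ovary for 10 complex I loci, against 8 for LP4, and HP2 for 3 complex III loci, against 1 for LP4. The summed CPM of complexes I and IV was higher in HP2 and HP3 than in LP4. In LP6, complex IV stood lowest with a median of -0.21, and 6 of its 9 loci had their lowest level there.

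The count of members at an unadjusted p under 0.05 rested on single ovaries. Without LP4 it was 10 (11.4% of members), all higher in HP, against 5.17% of all tested loci in that fit, and none passed the adjusted threshold. These 10 were COX10, NDUFA9, NDUFV3, NDUFB1, UQCRB, UQCRC2, ATP5C1, ZC2HC1B, RPAP3 and the DNTTIP2 and GCLM locus. Without HP1 the count was 5 (5.68% of members, against 9.12% of all tested loci), and without HP3 it was also 5 (against 6.88% of all tested loci). Of 6 smooth muscle markers 5 were found. At an unadjusted p under 0.05 by edgeR 3 of them were lower in HP, against 3.5% of all tested loci. Adjusted p-values by edgeR lay between 0.584 and 0.689 for the 5 markers. All HP ovaries were below all LP ovaries for 1 of them, against 7.17% of all tested loci. The markers summed to 790, 484 and 872 CPM in HP1, HP2 and HP3, against 1572, 2692 and 557 CPM in LP4, LP5 and LP6. Their part in the levels of the members was not tested. In whole tissue, fewer cells of a type and less RNA per cell cannot be told apart.

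**Figure D4:**
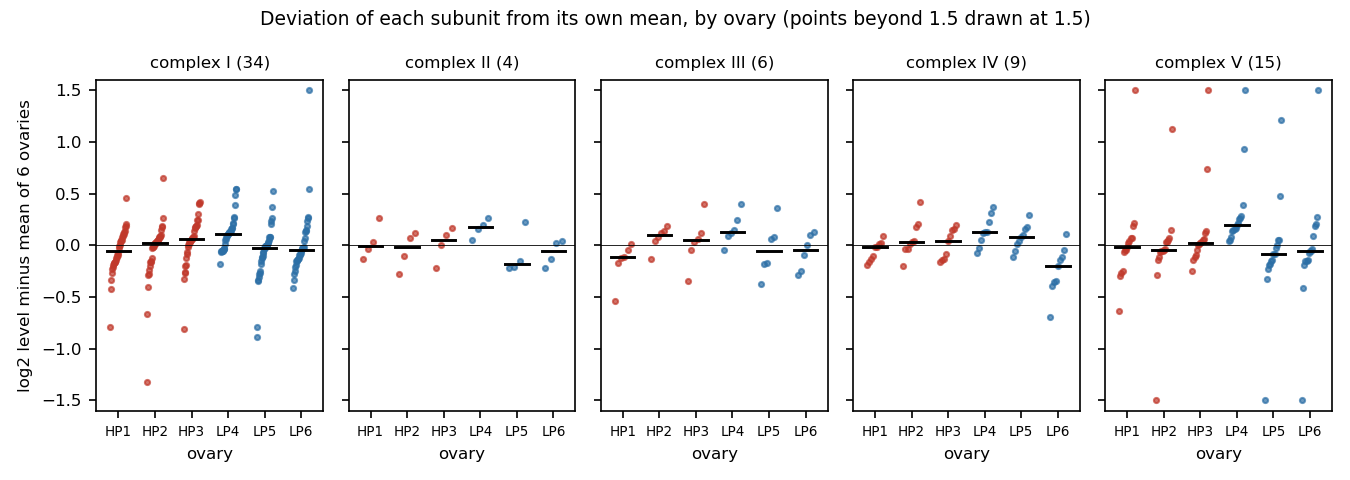
Log2 level of each subunit minus its own mean over the 6 ovaries (vertical axis; 1 point per locus, points beyond 1.5 drawn at 1.5) in each ovary (horizontal axis, HP red and LP blue), by complex, with the median as a black line. The medians of LP4 lie above 0 in all 5 panels, at 0.11 to 0.20.

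The subunits were steady from bird to bird. The median coefficient of variation was 9.76% among HP ovaries and 12.4% among LP ovaries. It was 13.4% in HP and 14.3% in LP for the 12898 tested loci of similar level. These had a mean CPM between the 10th and 90th percentile of the subunits, 6.38 to 146 CPM, and were not matched gene by gene. Their median level was 27.6 CPM, against 32.2 CPM for the 68 subunits, which include those outside this range. The highest ovary was a median of 1.39-fold above the lowest for the subunits, and 1.55-fold for the loci of similar level. The fold between the highest and the lowest ovary was under 1.5 for 44 of 68 subunits (64.7%, against 45.3% of the loci of similar level) and over 2 for 7 (10.3%, against 23.9%).

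Levels per length could be compared between genes only with care. The ratio of counts to FPKM implies a transcript longer than the whole locus for 23 of 88 members, such as 44000 bases for NDUFA11, whose locus spans 1722 bases. With this limit, the highest mean FPKM in each complex was that of NDUFB1 (457 FPKM), SDHB (180 FPKM), UQCRQ (79.0 FPKM), COX7B (413 FPKM) and ATP5B (1349 FPKM). The NDUFB1 locus also carries ATXN3 and the COX7B locus ATP7A, so these values may not be those of the subunit. The implied lengths were short for ATP5B (295 of 2482 bases of the locus), NDUFB1 (258 of 22091 bases) and UQCRQ (242 of 549 bases). A short length raises the FPKM, so these high values may overstate the level per length. The lowest were NDUFA11 (0.255 FPKM), SDHD (7.50 FPKM), UQCRH (14.2 FPKM), COX6B1 (0.312 FPKM) and the ATP5J2 copy (0.206 FPKM), and for all 5 of these the implied length exceeded the locus. These low values therefore give no level per length. COX6B1, for example, had between 725 and 1036 counts in each ovary.

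Of the other enzymes, none of 7 had an unadjusted p under 0.05 by edgeR, against 4.74% of all tested loci higher and 3.5% lower in HP. ATP12A, a proton and potassium pump of epithelia that include the mammalian kidney and colon, had 0.518, 6.15 and 0.764 CPM in HP1, HP2 and HP3, against 0.124, 0.717 and 0.504 CPM in LP4, LP5 and LP6. HP2 alone was high. The log2 fold change was 2.46 ± 1.10 (SE, adjusted p 0.612 by edgeR) and 0.51 without HP2. This locus overlaps a locus on the other strand that carries the same symbol, so the reads of the pair may not be separated. Kidney tubule markers also stood high in HP2, with a sum of 601 CPM there. The sum was 113 CPM in HP1, 96.9 CPM in HP3 and 72.0 to 110 CPM in the LP ovaries. Of 8 such markers 6 were found in the table, none of them at 0 in every ovary. LRP2 alone gave 396 CPM of the HP2 sum. AQP2 stood out little in HP2, at 11.1 CPM, against 9.48 CPM in HP1 and 8.95 CPM in LP6. The part of these markers in the ATP12A level was not tested. The gastric pump genes ATP4A (2 loci) and ATP4B lay between 0.382 and 1.36 CPM in every ovary. PPA1, the cytosolic pyrophosphatase, had 69.6, 63.2 and 58.6 CPM in HP, against 94.2, 63.4 and 82.8 CPM in LP, with overlapping groups, and the mitochondrial PPA2 had a log2 fold change of -0.004. LHPP, a phosphatase, had 11.7, 15.8 and 22.4 CPM in HP, against 13.6, 12.1 and 10.9 CPM in LP.

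For 10 members the name does not match the label. They were SERAC1, HDHD2, RPAP3, FAM104A, ZC2HC1B, the joined DNTTIP2 and GCLM locus, and 4 LOC loci. Among them, LOC102091669 is described as a regulator of G-protein signalling but carries the gene ontology term for cytochrome c oxidase activity. It was steady, with 35.4, 40.3 and 36.8 CPM in HP, against 41.5, 40.7 and 37.3 CPM in LP. ZC2HC1B was the 1 locus of the 10 whose groups did not overlap, with 6.80, 5.96 and 6.29 CPM in HP, against 5.75, 3.22 and 3.87 CPM in LP. All HP ovaries were above all LP ovaries for 7.38% of all tested loci. The log2 fold change was 0.57 ± 0.26 (SE, adjusted p 0.615 by edgeR), and HP2 was close to LP4.

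No list of genes that build or serve the respiratory chain held a locus with an adjusted p under 0.05 by edgeR. Of 48 assembly factors listed, a list that includes the members COX10, COX11 and COX17, 21 were found outside the members. Of these 21, with a median log2 fold change of 0.09, 0 had an unadjusted p under 0.05 by edgeR. Of all tested loci, 4.74% were higher and 3.5% lower in HP at this level. COX10, the member with the lowest p, is thus not in this count. Loci were matched by symbol, so factors under LOC names may be among those not found. Of 17 genes of the citric acid cycle and pyruvate dehydrogenase, 15 were found outside the members. FH, also on this list, is carried by the SDHA locus, a member. Of 13 carriers and uncoupling genes 9 were found and 8 tested. In either list 0 loci had an unadjusted p under 0.05 by edgeR, against the same shares of all tested loci. At those shares a count of 0 says little about lists this short. In the citric acid cycle list, all HP ovaries were above all LP ovaries for 2 loci and below them for 2, against 7.38% and 7.17% of all tested loci. Of 18 regulators of mitochondrial biogenesis 16 were found, and 2 (12.5%) were higher in HP at an unadjusted p under 0.05, against 4.74% of all tested loci. Over the 16 the median log2 fold change was 0.02, with 9 above 0 and 7 below 0. For 1 of them, YY1, all HP ovaries were below all LP ovaries, as for 7.17% of all tested loci. The 2 higher in HP were named after their values were seen. ESRRG, a nuclear receptor that drives mitochondrial genes in mammals, had 42.5, 61.2 and 43.6 CPM in HP, against 34.1, 34.4 and 31.2 CPM in LP. TFB1M, a methyltransferase of mitochondrial ribosomal RNA, had 13.1, 14.8 and 21.2 CPM in HP, against 10.3, 12.0 and 10.8 CPM in LP. The groups did not overlap for either gene, and the log2 fold changes of 0.56 and 0.57 had adjusted p-values of 0.575 and 0.595 by edgeR.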

How the data were processed

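Total RNA of 6 ovaries was depleted of ribosomal RNA and sequenced in pairs from libraries that mark the strand. Per the labels and methods, the authors trimmed reads with cutadapt 1.9, checked them with FastQC 0.10.1, mapped them to Cliv_1.0 with HISAT2 2.0.4 and assembled and quantified transcripts with StringTie 1.3.4. The authors deposited 1 table with whole-number counts per locus, not normalized, and FPKM values per locus. How the counts were made is not given in the sources used here, and neither is whether they used the strand. A locus joins overlapping transcripts, so it can hold several genes.

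The members followed the KEGG column, and their complex followed the gene symbol or, for LOC loci, the protein description. The members and lists were chosen with earlier results of these data known. HP and LP were taken from the labels, with 3 ovaries each. Of 34 LOC symbols among the members, 29 were found in the RefSeq gene table and 6 had a gene symbol there.

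Loci were kept where FPKM averaged 0.1 or more, and the counts of these 28274 loci were tested with edgeR 4.0.16 (TMM, quasi-likelihood, two-sided, no covariate), with Benjamini-Hochberg adjustment over all of them, in R 4.3.3. The study's methods name a test on FPKM, and its sample records also list edgeR, without a version. Counts call for a count test, so limma 3.58.1 on log2(FPKM + 1) served as an alternative. Further alternatives were a pseudocount of 0.1, DESeq2 1.42.0, its size factors, other filters and leaving out each ovary. CPM values use the TMM factors, and the sums over a complex were also made in FPKM. Ovaries had 97875183 to 108669967 counts in total. For the 65 of 88 members with over 1000 counts in every ovary, counting error is taken as small, so that the spread between 3 ovaries sets the precision. How far a count stands for a single read is not known. For members with few counts, such as the ATP5J2 copy with 2 in HP2, counting error adds to that spread. That the samples are separate birds comes from the study's description. With 3 ovaries against 3, the smallest two-sided p of an exact permutation test is 0.1. Fits were tested on simulated data. Members were named by the lowest p, the highest and lowest FPKM of a complex, isoform pairs and copies, and those whose groups did not overlap or that 1 ovary decided were added after their values were seen. 1 member is counted in all totals but is not reported singly here. Summary values were computed with Python 3.11.15, and 0 columns of values were left unused.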

Additional observations from a re-analysis of the deposited data

How the results depend on the processing

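The count of members at an unadjusted p under 0.05 was 3 and changed by more than 1.5 times with the tool and the ovaries. It was 7 with DESeq2 (4 higher and 3 lower in HP), 5 with limma on log2(FPKM + 1) (all higher), and between 2 and 10 when an ovary was left out, with 10 without LP4. Among the 46 subunits with 1 gene symbol and no overlapping locus, an alternative chosen after seeing the data, it was 0. The count at an adjusted p under 0.05 was 0 under every alternative run, and the lowest adjusted p of a member lay between 0.0813 and 0.902. Leaving out an ovary gave a median log2 fold change between -0.027 and 0.065. The sums of complexes I to V, also without each ovary (added after seeing the data), had log2 ratios of 0.03 to 0.10, -0.023 to 0.12, -0.041 to 0.10, 0.03 to 0.11 and -0.14 to -0.003. Without loci of several gene symbols, the sum of complex IV gave -0.073. The log2 fold change changed sign for COX7A2 without LP6 (-0.14), for the ATP5J2 copy without HP1 (-0.25) or LP5 (-0.20), and for the ATP5H copy without HP2 (-0.32), HP3 (-0.027) or LP6 (-0.50), and none of these passed a threshold. Over the ovaries left out, the values reached up to 0.15 for COX7A2 (without LP4), 0.93 for the ATP5J2 copy (without HP2) and 0.58 for the ATP5H copy (without LP5). With DESeq2, 385 loci of the table had an adjusted p under 0.05, against 3 with edgeR, and none was a member. TMM factors without mitochondrial loci were not run, since the table used has 0 such loci. No paired analysis was possible because the labels number the HP ovaries 1 to 3 and the LP ovaries 4 to 6, so the groups share no number.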
